A study of Homo sapiens with 6 samples.

Results

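The 7 cyclin-dependent kinase (CDK) inhibitor genes of man were examined: *CDKN1A*, *CDKN1B* and *CDKN1C* of the CIP/KIP family and *CDKN2A*, *CDKN2B*, *CDKN2C* and *CDKN2D* of the INK4 family. They were picked by gene name from the 58735 genes of the expression table, and all 7 were found and were expressed well enough to be tested. TPC-1 cells derive from a human papillary thyroid carcinoma. RNA was sequenced in 3 libraries of wild strain TPC-1 and in 3 libraries of *RRM2*-OE-TPC-1, the same line infected with a lentivirus (LV18) in which the CMV promoter drives *RRM2*, a subunit of ribonucleotide reductase, and then selected with puromycin. No empty vector or puromycin treatment is described for the wild strain, so that the effects of *RRM2* and of infection and selection cannot be told apart. For *RRM2*-OE-TPC-1 replicates 2 and 3 the genotype labels name RRM3 and RRM4, although the titles name *RRM2*. The labels also describe depletion of ribosomal RNA and use of RNase R, whereas the study's methods describe poly(A) selection. The study's methods describe the libraries of each cell line as biological triplicates, and the p-values measure the spread between them. Separate infections or selections behind the triplicates are not described, so the p-values cannot be taken to cover the spread between such lines.

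CDK inhibitors restrain the cell cycle by binding the kinases that drive it. The CIP/KIP proteins p21 (*CDKN1A*), p27 (*CDKN1B*) and p57 (*CDKN1C*) bind cyclin-CDK complexes, chiefly those of CDK2, whereas the INK4 proteins p16 (*CDKN2A*), p15 (*CDKN2B*), p18 (*CDKN2C*) and p19 (*CDKN2D*) bind CDK4 and CDK6 and keep them from D-type cyclins. Transcription of *CDKN1A* rises after DNA damage, p27 protein is removed largely through the ubiquitin ligase that contains SKP2, and *CDKN2A* also encodes ARF, an inhibitor of MDM2, from another first exon. The table holds a single value per gene, and therefore p16 and ARF transcripts cannot be told apart in it.

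The deposited values are FPKM, that is, read counts scaled by gene length and by library depth. Levels are compared between genes on this scale, but they may depend on the library method, on which the sources conflict. The libraries held 14317091 to 17084067 reads on genes. Each difference was tested with limma on log2(FPKM + 0.1) over 13621 genes with at least 0.5 FPKM and at least 10 reads in at least 3 libraries, with Benjamini-Hochberg adjustment. Genes counted as differentially expressed had an adjusted p no larger than 0.05 together with a log2 fold change of at least 1 in size, and genes past the adjusted p alone were counted as well. *RRM2* itself rose 5.42-fold in FPKM in *RRM2*-OE-TPC-1. It had 50.4, 47.5 and 47.2 FPKM in replicates 1 to 3, against 8.52 to 9.17 FPKM in the wild strain. The rise was thus present also in replicates 2 and 3, whose genotype labels name other genes. Of the thyroid lineage genes, *PAX8* was expressed (69.3 and 58.5 FPKM on average in the wild strain and *RRM2*-OE-TPC-1), *FOXE1* and *HHEX* were low (4.30 and 3.19, and 2.47 and 4.61 FPKM, log2 fold changes -0.42 and 0.87 beside -0.24 for *PAX8*, all past the adjusted p), *NKX2-1* was at 0 in every library, and *TG*, *TSHR* and *SLC5A5* did not reach the minimum for testing. The 9 markers of blood, endothelium and fibroblasts summed to 1.94 to 2.32 FPKM in the wild strain and to 0.659 to 0.830 FPKM in *RRM2*-OE-TPC-1, with *CD3E*, *HBB* and *DCN* at 0 throughout and the endothelial gene *PECAM1* at 0.924 and 0.0588 FPKM on average. The 6 epithelial markers summed to 42.9 to 47.1 and to 88.4 to 90.8 FPKM, mostly *KRT18*, while *EPCAM*, *CDH1* and *KRT19* were below the minimum. The part of these markers in the results was not tested. Replicate 1 of *RRM2*-OE-TPC-1 stood apart from the other 2 of its group, with a chi-square per gene of 5.09 and 5.78 against them, compared with 1.77 between those 2 and 2.91 to 3.08 between the TPC-1 libraries.

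*CDKN1A* rose about 5-fold in *RRM2*-OE-TPC-1, while 4 other members fell, namely *CDKN1B*, *CDKN2A*, *CDKN2B* and *CDKN2D*, with mean FPKM 24.0% to 39.8% lower. *CDKN2C* and *CDKN1C* did not pass the test. Thus 1 of 7 members was called differentially expressed, against 11.5% of all tested genes, and the single call was an increase, against 4.48% of all tested genes. At the adjusted p alone 5 of 7 members passed, against 67.6% of all tested genes, and 4 of 7 were lower, against 32.7%. The groups of libraries did not overlap in FPKM for 6 of 7 members, against 72.2% of all tested genes. The median log2 fold change was -0.38 over the members and 0.01 over all tested genes. Without replicate 1 of *RRM2*-OE-TPC-1, 1 member was called, and 1573 genes in all. At the adjusted p alone 6 of 7 members then passed. The share of all tested genes in that fit is not given here, so this count is not read as a result about the members. In these cultures, fewer cells that express a gene and less of its RNA per cell cannot be told apart.

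**Figure D1:**
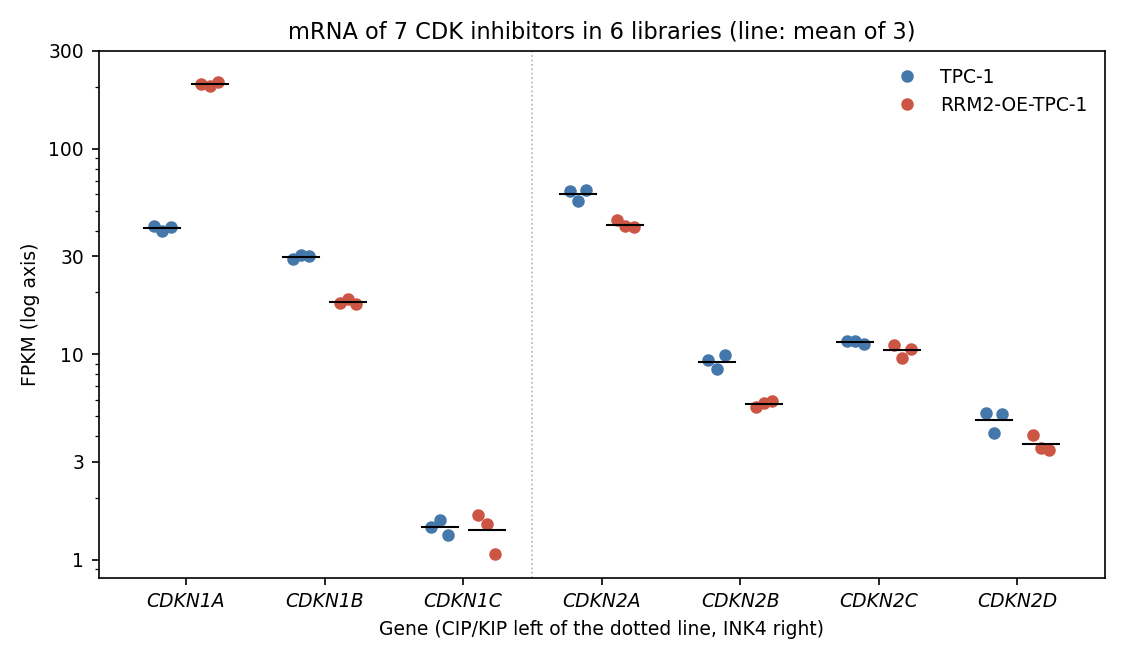
FPKM (log axis) of the 7 CDK inhibitor genes in each of 3 TPC-1 (blue) and 3 *RRM2*-OE-TPC-1 (red) libraries, with the group mean as a line. *CDKN1A* lies far higher in *RRM2*-OE-TPC-1, the red points of 5 other genes lie below the blue ones, and those of *CDKN1C* overlap.

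The sequences below belong to the member that rose and to the neighbouring genes on chromosome 9 that fell together. Their part in these changes was not tested. The sequences are taken from RefSeq (GRCh38.p14), run 5′ to 3′ along the strand of the gene, and precede an annotated start. Of the 250 bases before each start, only those outside the exons of the gene itself and outside any untranslated region of GENCODE 29 are printed. Capitals mark the GC box GGGCGG on either strand, the letters bound by SP1-type zinc finger factors.
CDKN1A, chr6:36678464-36678657, plus strand: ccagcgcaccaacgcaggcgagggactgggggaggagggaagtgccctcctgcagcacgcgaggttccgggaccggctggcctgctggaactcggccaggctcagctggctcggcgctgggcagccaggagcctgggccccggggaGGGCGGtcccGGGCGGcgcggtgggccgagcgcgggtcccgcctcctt
CDKN2A (start of the ARF transcript), chr9:21995325-21995574, minus strand: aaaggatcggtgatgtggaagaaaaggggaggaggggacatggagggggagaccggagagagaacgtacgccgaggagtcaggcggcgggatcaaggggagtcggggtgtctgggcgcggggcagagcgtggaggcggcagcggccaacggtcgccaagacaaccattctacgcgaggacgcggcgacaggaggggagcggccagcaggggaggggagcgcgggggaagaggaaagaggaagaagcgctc
CDKN2B-AS1, chr9:21994625-21994777, plus strand: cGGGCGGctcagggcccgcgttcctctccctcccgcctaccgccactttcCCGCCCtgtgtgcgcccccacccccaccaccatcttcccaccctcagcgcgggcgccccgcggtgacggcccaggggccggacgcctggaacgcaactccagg
CDKN2B, chr9:22009364-22009555, minus strand: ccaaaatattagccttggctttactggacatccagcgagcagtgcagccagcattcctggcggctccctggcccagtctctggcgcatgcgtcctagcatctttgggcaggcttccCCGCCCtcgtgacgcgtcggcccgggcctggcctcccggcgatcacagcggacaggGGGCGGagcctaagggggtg
Over the whole 250 bases, GGGCGG or its complement occurred 4 times before *CDKN1A*, with 2 of the matches overlapping each other, 2 times before *CDKN2B*, 2 times before *CDKN2B-AS1* and 0 times before the ARF start of *CDKN2A*. It occurred 1 time before the p16 start of *CDKN2A* and 1 time before *CDKN1B*. Before the 3 annotated starts of *CDKN2C*, which did not pass the test, it occurred 0, 5 and 1 times, and before *CDKN2D*, which fell, 2 times. Of 35116 windows of this length in the RefSeq table, 42.6% held at least 1 match and 13.9% at least 3. The guanine and cytosine content of the 250 bases was 76.4% before *CDKN1A*, 64.4% before *CDKN1B*, 66.4% before *CDKN2B* and 66.8% before either start of *CDKN2A*, beside a median of 58.0% over all windows. It was 45.6%, 77.2% and 48.8% before the 3 starts of *CDKN2C* and 67.6% before *CDKN2D*. The TATA box letters TATAAA, present on either strand in 10.7% of the windows, were in none of these. The letters CCAAT, present on either strand in 32.0% of all windows, occurred 2 times before *CDKN1B* and 0 times before *CDKN1A*, *CDKN2A* and *CDKN2B*. They occurred 0, 0 and 1 times before the 3 starts of *CDKN2C* and 1 time before *CDKN2D*. *CDKN1C* had no window in the RefSeq table. A match of letters is a description of the sequence, and binding was not measured.

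*CDKN1A* (ENSG00000124762; chromosome 6, 36676460 to 36687339, plus strand) encodes p21, which halts the cycle after DNA damage and also binds PCNA. Its FPKM was 42.2, 39.7 and 41.6 in TPC-1 replicates 1 to 3 and 208, 203 and 212 in *RRM2*-OE-TPC-1 replicates 1 to 3. All *RRM2*-OE-TPC-1 libraries lay far above all TPC-1 libraries, and these values rest on 2020 to 2150 reads per TPC-1 library and on 9151 to 10609 per *RRM2*-OE-TPC-1 library. The ratio of the means was 5.04, and the log2 difference was 2.33 ± 0.0359 (standard error, 95% confidence interval 2.25 to 2.42, limma, adjusted p = 9.81e-09). This was the 58th largest increase among the 13621 tested genes, and the gene moved from rank 844 to rank 110 in mean FPKM. An exon of *DINOL*, a noncoding RNA on the opposite strand, shares 146 exon bases with *CDKN1A* and had a mean of 0.181 FPKM over the 6 libraries.

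*CDKN1B* (ENSG00000111276; chromosome 12, 12715058 to 12722371, plus strand) encodes p27, which holds cyclin E and CDK2 inactive in resting cells. The 3 TPC-1 libraries had 29.1, 30.3 and 30.02 FPKM and the 3 *RRM2*-OE-TPC-1 libraries 17.7, 18.6 and 17.6 FPKM. The groups did not overlap, with all TPC-1 libraries above. The means were 29.8 ± 0.639 and 17.95 ± 0.552 FPKM (n = 3 per group, SD), and the log2 difference was -0.73 ± 0.0376 (standard error, 95% confidence interval -0.81 to -0.64, limma, adjusted p = 1.36e-06). *CDKN1B* fell from rank 1252 to rank 2477 in mean FPKM.

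*CDKN1C* (ENSG00000129757; chromosome 11, 2883213 to 2885773, minus strand) is imprinted and encodes p57, which acts mainly in development. It had 1.45, 1.56 and 1.32 FPKM in the wild strain and 1.65, 1.48 and 1.06 FPKM in *RRM2*-OE-TPC-1. The groups overlapped, and the values rest on 42 to 65 reads per library. The log2 fold change was -0.06 with a 95% confidence interval from -0.44 to 0.32 (adjusted p = 0.761 from limma). No difference was detected, and one within that interval is not excluded.

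*CDKN2A* (ENSG00000147889; chromosome 9, 21967753 to 21995301, minus strand), which encodes p16 and ARF and is often deleted in cancer cell lines, was expressed in both groups and was the most abundant member in TPC-1. Its FPKM was 62.2, 55.7 and 62.9 in the wild strain and 44.9, 41.9 and 41.6 in *RRM2*-OE-TPC-1. Every TPC-1 library lay above every *RRM2*-OE-TPC-1 library, and each value rests on 2808 to 4497 reads. The log2 difference was -0.49 ± 0.0547 (standard error, 95% confidence interval -0.62 to -0.37, limma, adjusted p = 8.62e-05). *CDKN2A* shares 341 exon bases with *CDKN2B-AS1* on the opposite strand. The kit marks strand, but whether strand was used in counting is not given in the sources used here, so reads there cannot be assigned with certainty.

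*CDKN2B* (ENSG00000147883; chromosome 9, 22002903 to 22009363, minus strand) encodes p15, an effector of growth arrest by TGF-beta. It had 9.33, 8.44 and 9.87 FPKM in the wild strain and 5.54, 5.77 and 5.91 FPKM in *RRM2*-OE-TPC-1, without overlap. The log2 difference was -0.67 ± 0.0660 (standard error, 95% confidence interval -0.82 to -0.52, limma, adjusted p = 4.28e-05). The ratio of *CDKN2A* to *CDKN2B* FPKM was 6.38 to 6.67 in the wild strain and 7.03 to 8.10 in *RRM2*-OE-TPC-1, ranges that did not overlap.

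*CDKN2C* (ENSG00000123080; chromosome 1, 50960745 to 50974633, plus strand) encodes p18. It had 11.7, 11.6 and 11.2 FPKM in the wild strain and 11.1, 9.57 and 10.6 FPKM in *RRM2*-OE-TPC-1. The lowest TPC-1 library lay just above the highest *RRM2*-OE-TPC-1 library, which was replicate 1. The log2 difference was -0.14 ± 0.0595 (standard error, limma, adjusted p = 0.0654) and missed the threshold. It passed without *RRM2*-OE-TPC-1 replicate 1 (log2 fold change -0.19, adjusted p = 0.0252 from limma) and with scaling to library totals (-0.20, adjusted p = 0.0185).

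*CDKN2D* (ENSG00000129355; chromosome 19, 10566462 to 10569059, minus strand) encodes p19, which rises in S phase in cycling cells. It had 5.18, 4.15 and 5.09 FPKM in the wild strain and 4.05, 3.50 and 3.42 FPKM in *RRM2*-OE-TPC-1. The groups did not overlap, but TPC-1 replicate 2 and *RRM2*-OE-TPC-1 replicate 1 lay close together, and 82 to 130 reads stand behind each value. The log2 difference was -0.38 ± 0.105 (standard error, 95% confidence interval -0.63 to -0.14, limma, adjusted p = 0.0115).

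**Figure D2:**
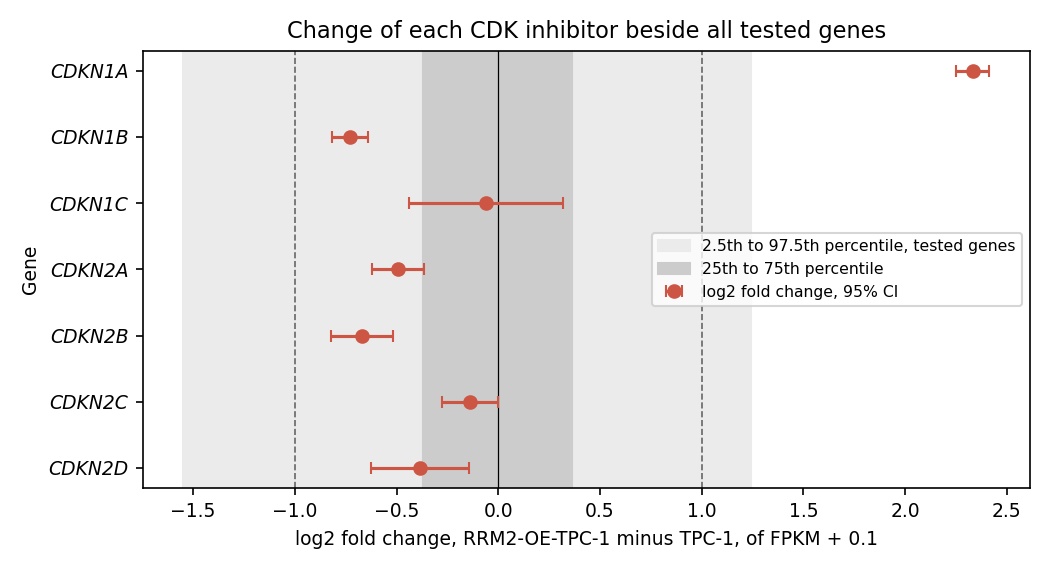
Log2 fold change (*RRM2*-OE-TPC-1 minus TPC-1, of FPKM + 0.1) of each member with its 95% confidence interval, over bands that hold the central part of the 13621 tested genes, with dashed lines at -1 and 1. *CDKN1A* at 2.33 lies beyond the outer band, which ends at 1.24, whereas the other 6 members lie between -0.73 and -0.06.

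The order of the members by FPKM in TPC-1 was *CDKN2A*, *CDKN1A*, *CDKN1B*, *CDKN2C*, *CDKN2B*, *CDKN2D* and *CDKN1C*. In *RRM2*-OE-TPC-1 *CDKN1A* took the first place from *CDKN2A*, and the order of the others was as in TPC-1. In neither group did the ranges of 2 neighbours in the order overlap. *CDKN1A* was in the top 6.20% of the tested genes in TPC-1 and in the top 0.808% in *RRM2*-OE-TPC-1, and *CDKN2A* in the top 3.75% and 6.59%.

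The sum of the CIP/KIP genes was 72.8, 71.5 and 72.9 FPKM in the wild strain and 227, 223 and 231 FPKM in *RRM2*-OE-TPC-1. The sum of the INK4 genes was 88.4, 79.9 and 89.1 FPKM in the wild strain and 65.6, 60.7 and 61.5 FPKM in *RRM2*-OE-TPC-1. The sums differed in opposite directions, by a factor of 3.13 upward for CIP/KIP and of 1.37 downward for INK4. In each family all libraries of a group lay on the same side, beside 72.2% of all tested genes without overlap between the groups. *CDKN1A* made up 56.8% ± 1.30 of the CIP/KIP sum in the wild strain and 91.5% ± 0.453 in *RRM2*-OE-TPC-1 (n = 3 per group, SD). *CDKN1B* made up 41.2% ± 1.20 and 7.92% ± 0.367. Without *CDKN1A*, the CIP/KIP sum was lower in *RRM2*-OE-TPC-1, at 19.3 ± 0.706 against 31.2 ± 0.668 FPKM (n = 3 per group, SD). *CDKN2A* held 70.2% ± 0.472 of the INK4 sum in the wild strain and 68.3% ± 0.711 in *RRM2*-OE-TPC-1. The share of *CDKN2C* was 13.4% ± 0.987 and 16.7% ± 0.788 and that of *CDKN2B* 10.7% ± 0.296 and 9.19% ± 0.640, each without overlap between the groups. Sums over chosen members are given as levels, without a test.

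**Figure D3:**
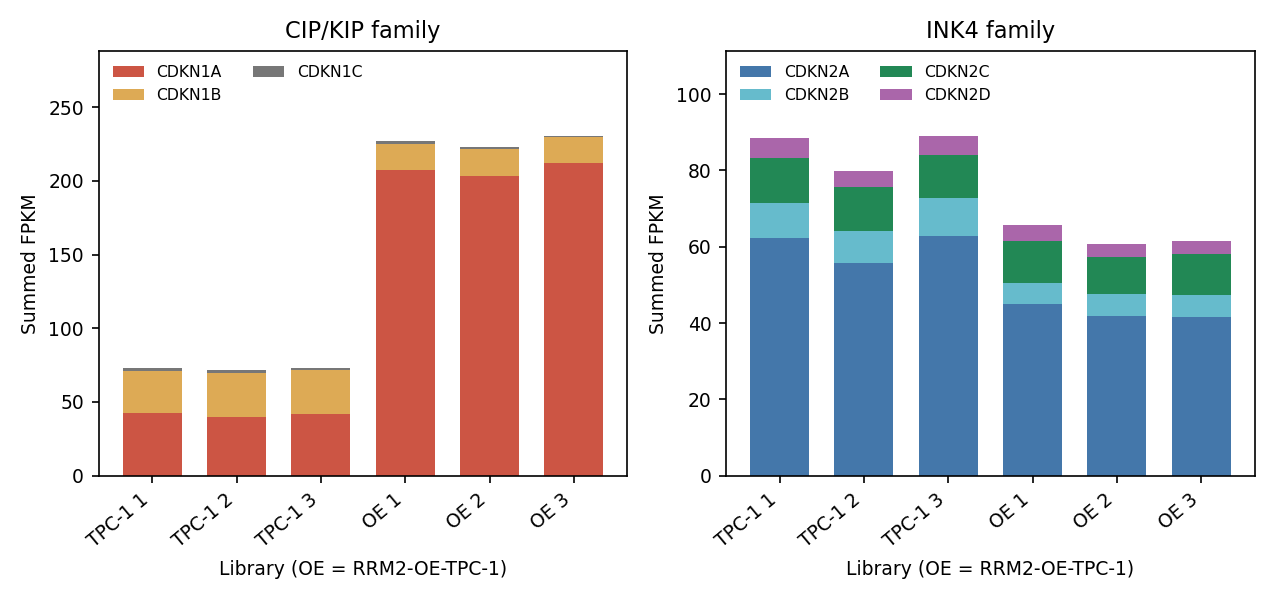
Summed FPKM of the CIP/KIP (left) and INK4 (right) genes in each library, stacked by gene from 0 (the panels have different scales). The CIP/KIP bars reach 71.5 to 72.9 in the wild strain and 223 to 231 in *RRM2*-OE-TPC-1, with *CDKN1A* as the segment that grew, and the INK4 bars 79.9 to 89.1 and 60.7 to 65.6.

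The partners of these proteins were mostly higher in *RRM2*-OE-TPC-1. For the gene lists that follow, the shares among all tested genes were 4.48% called higher and 6.97% called lower, and at the adjusted p alone 34.9% higher and 32.7% lower. Of the 13 tested genes in a list of 15 CDKs, cyclins and *PCNA*, 6 were called higher and 1 lower, and at the adjusted p alone 12 were higher and 1 lower, with a median log2 fold change of 0.87. *CDK2*, the kinase held by the CIP/KIP proteins, rose from 8.69 ± 0.537 to 15.9 ± 0.249 FPKM (n = 3 per group, SD), and the log2 fold change was 0.87 (limma, adjusted p = 2.90e-06). Of the kinases bound by INK4 proteins, *CDK6* rose from 5.29 to 12.6 FPKM (log2 fold change 1.23) and *CDK4* from 28.4 to 33.0 FPKM (log2 fold change 0.22), both past the adjusted p. Among the cyclins, log2 fold changes were 1.87 for *CCNE2*, 1.45 for *CCNE1* and 1.21 for *CCNA2*, which activate CDK2, and 1.30 for *CCND1* and 0.34 for *CCND3*, which activate CDK4 and CDK6. *CCNA1* was the gene called lower (log2 fold change -1.01), a call that was lost with a pseudocount of 1 (-0.515) and without TPC-1 replicate 1 (-0.992), TPC-1 replicate 2 (-0.971) or *RRM2*-OE-TPC-1 replicate 1 (-0.894). *CCND2* was listed at 0 and *CDK3* was too low to be tested. The DNA clamp gene *PCNA*, whose product p21 binds, rose 3.57-fold.

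Per unit of kinase mRNA, the summed mRNA of the INK4 genes was lower in *RRM2*-OE-TPC-1. *CDKN2A*, whose value pools p16 and ARF transcripts, held 70.2% of that sum in the wild strain and 68.3% in *RRM2*-OE-TPC-1. The part of p16 in the ratio is therefore not known. The ratio of summed INK4 FPKM to summed *CDK4* and *CDK6* FPKM was 2.60, 2.44 and 2.60 in the wild strain and 1.39, 1.37 and 1.36 in *RRM2*-OE-TPC-1. The ratio of summed CIP/KIP FPKM to *CDK2* FPKM was 8.15, 8.85 and 8.04 in the wild strain and 14.5, 13.99 and 14.3 in *RRM2*-OE-TPC-1. Both ratios separated the groups completely, in opposite directions. Such separation was common, as the groups did not overlap in FPKM for 72.2% of all tested genes. An exact permutation test over the 6 libraries gave p = 0.1 for each ratio, the smallest value it can give with 3 libraries per group. The rise of the CIP/KIP ratio rested on *CDKN1A* alone. Without *CDKN1A*, the CIP/KIP sum fell from 31.2 to 19.3 FPKM on average, while *CDK2* rose from 8.69 to 15.9 FPKM. Both ratios compare mRNA, and protein was not measured in these libraries.

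Of 18 tested genes whose products act in the turnover of CDK inhibitor proteins, 3 were called higher and 0 lower, and at the adjusted p alone 15 were higher and 2 lower, with a median log2 fold change of 0.36. *SKP2*, the substrate receptor of the ligase for p27 and p21, had 5.52 ± 0.0628 FPKM in the wild strain and 15.7 ± 0.456 FPKM in *RRM2*-OE-TPC-1 (n = 3 per group, SD), and the log2 fold change was 1.49 (limma, adjusted p = 9.25e-08). Its cofactor gene *CKS1B* rose by 0.42, and the ligase core genes *SKP1*, *RBX1* and *CUL1* by 0.40, 0.38 and 0.18 on the log2 scale. The ratio of *SKP2* to *CDKN1B* FPKM was 0.181 to 0.192 in the wild strain and 0.871 to 0.880 in *RRM2*-OE-TPC-1. Of the genes that act on p21, *MDM2* rose by 2.17, *CDC20*, an activator of the anaphase-promoting complex, by 1.35, and *DTL*, the receptor of the ligase that degrades p21 in S phase, by 0.84 on the log2 scale. The genes that fell were *RNF123*, a subunit of a ligase for p27, and *RCHY1*, each with a log2 fold change of -0.42.

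Of 22 tested genes that code for activators of the members' transcription, 0 were called higher and 3 lower, and at the adjusted p alone 7 were higher and 13 lower, with a median log2 fold change of -0.29. The forkhead genes of this list fell together, with log2 fold changes of -0.59 for *FOXO1*, -0.94 for *FOXO3* and -1.42 for *FOXO4*. With a pseudocount of 1 *FOXO1* was at -0.369 and *FOXO4* at -0.84, so that *FOXO4* was no longer called. The other genes called lower were *EGR1* (-2.67) and *CEBPB* (-1.59). *SMAD4*, which acts with *SMAD3* downstream of TGF-beta at *CDKN2B*, had a log2 fold change of -0.46, and *SMAD3* of 0.40. *ETS1*, an activator of *CDKN2A*, rose by 0.73 on the log2 scale, and *SP1* fell by 0.37.

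Of 19 tested genes that code for repressors of the members, 1 was called higher and 1 lower, and at the adjusted p alone 6 were higher and 5 lower, with a median log2 fold change of 0.07. *MYC*, whose product represses *CDKN1A* and *CDKN2B*, fell in mRNA from 125 ± 2.54 to 72.5 ± 2.67 FPKM (n = 3 per group, SD), and the log2 fold change was -0.78 (limma, adjusted p = 8.92e-07). The study reports the opposite direction for c-MYC protein, which was higher in the overexpressing cells by Western blot. A lower level of this repressor can therefore not be read from its mRNA. *BCL6* was the gene called lower (-1.50) and *UHRF1*, a reader of DNA methylation, the gene called higher (1.19). Of the Polycomb genes, which silence the 9p21 locus, *EED* rose by 0.94 and *EZH2* by 0.21 on the log2 scale. *CBX7* had a log2 fold change of -0.92 (-0.553 with a pseudocount of 1) and *RNF2* of -0.20, past the adjusted p. *BMI1* (-0.08, adjusted p = 0.255 from limma), *SUZ12* (-0.002, adjusted p = 0.971 from limma) and *CBX8* (0.14, adjusted p = 0.133 from limma) did not pass the test. The DNA methyltransferase genes went apart, with 0.64 for *DNMT1* and -0.58 for *DNMT3A*. *TBX2* and *TBX3* rose by 0.56 and 0.37 on the log2 scale, but for *TBX2* the value was 0.276 with a pseudocount of 1, and the adjusted p was 0.057 from limma with no filter on low values.

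None of the gene lists was chosen independently of earlier results of these data, and no list was tested as a set.

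**Figure D4:**
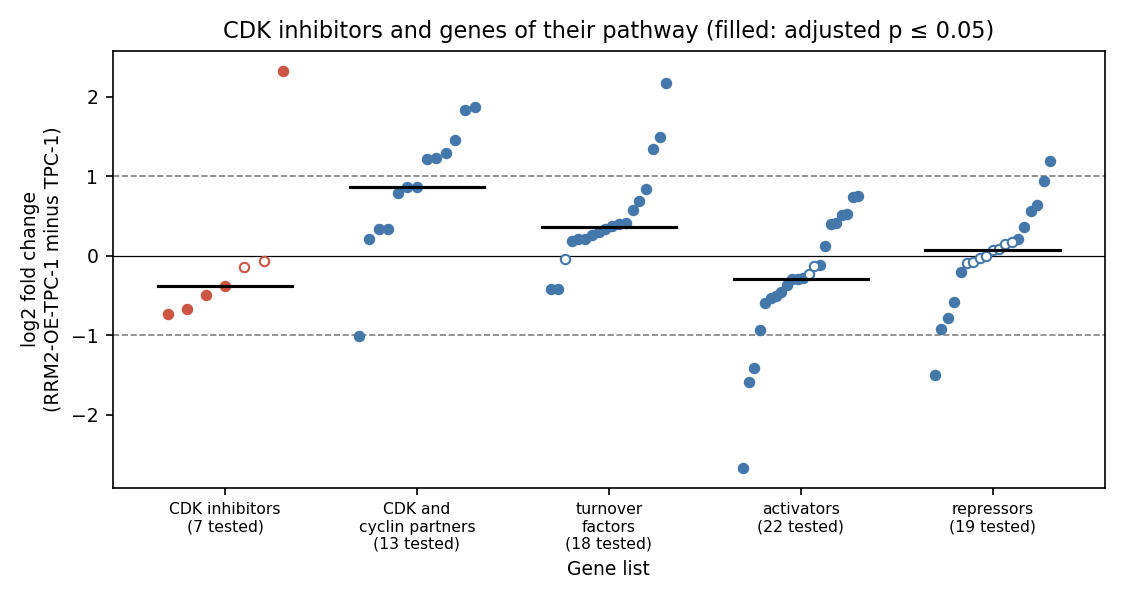
Log2 fold change of every tested gene (points, filled at an adjusted p of 0.05 or less) in the members and in 4 lists, sorted within each list, with the list median as a line and dashed lines at -1 and 1. The medians are -0.38 for the CDK inhibitors, 0.87 for CDK and cyclin partners, 0.36 for turnover factors, -0.29 for activators and 0.07 for repressors.

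Of 5 other genes that carry a similar name but belong to neither family, 4 rose and 1 fell at the adjusted p alone, and 0 were called. *CDKN3*, a phosphatase of CDK2, *CDKN2AIP* and *CDKN2AIPNL* had log2 fold changes of 0.58, 0.33 and 0.47, and *CDK2AP1* and *CDK2AP2* of 0.47 and -0.29, each past the adjusted p.

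On chromosome 9 the genes *CDKN2A*, *CDKN2B* and the noncoding *CDKN2B-AS1*, which starts 533 bases from the ARF start of *CDKN2A* and runs the other way, were all lower in *RRM2*-OE-TPC-1. *CDKN2B-AS1* had 1.26, 1.36 and 1.24 FPKM in the wild strain and 0.483, 0.567 and 0.618 FPKM in *RRM2*-OE-TPC-1, without overlap and on 56 to 183 reads per library. Its log2 difference was -1.08 ± 0.138 (standard error, limma, adjusted p = 0.000190), but -0.56 with a pseudocount of 1. The flanking protein-coding genes differed in opposite directions: *MTAP*, 30102 bases from *CDKN2A*, had a log2 fold change of 0.27, and *DMRTA1*, 437478 bases from *CDKN2B*, of -1.49 (-0.894 with a pseudocount of 1), both past the adjusted p. Near *CDKN1B*, *APOLD1* at 3546 bases had a log2 fold change of -1.34 (-0.776 with a pseudocount of 1), and near *CDKN1A*, *SRSF3* at 70860 bases had 0.34. *FAF1* at 482 bases from *CDKN2C* (-0.02, adjusted p = 0.696 from limma) and *KRI1* at 425 bases from *CDKN2D* (0.03, adjusted p = 0.514 from limma) did not pass the test, and *AP1M2* on the other side of *CDKN2D* rose by 0.41 on the log2 scale. The other neighbours, *RAB44*, *GPR19*, *KCNQ1*, *SLC22A18AS* and *C1orf185*, were below the minimum. *KCNQ1OT1*, the noncoding RNA of the imprinted cluster that holds *CDKN1C*, did not pass the test (-0.03, adjusted p = 0.865 from limma), and *PANDAR*, which lies near *CDKN1A*, was listed at 0.

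The tested protein-coding genes most like each member were those with the smallest root mean square distance between centred log2 profiles over the 6 libraries. For *CDKN1A* these were *HSP90AA1* (distance 0.0368) and *IFI44* (0.0937), and for *CDKN1B* *PHYKPL* (0.0214) and *CLIP4* (0.0241). *CDKN2A* was closest to *DGAT1* (0.0147) and *RSL24D1* (0.0220), and *CDKN2B* to *ARHGEF3* (0.0375) and *CXCL16* (0.0387). The nearest profiles were those of *STARD9* (0.0179) and *METTL21A* (0.0216) for *CDKN2C*, of *TWF2* (0.0423) and *EAPP* (0.0476) for *CDKN2D*, and of *ZNF616* (0.0714) and *NSUN6* (0.0799) for *CDKN1C*. With 2 groups of 3 libraries, such distances mainly reflect a like size of the difference between the groups.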

How the data were processed

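RNA was sequenced in 3 wild strain TPC-1 and 3 *RRM2*-OE-TPC-1 libraries. The authors cleaned reads with fastp, aligned them with HISAT2 2.0.5 and counted them per gene with featureCounts 1.5.0 (versions and build GRCh38.p14 from the submitters' processing notes), and deposited FPKM values. Methods describe poly(A) selection, whereas per the labels ribosomal RNA was depleted and RNase R applied. Which was done cannot be told from these sources, and levels compared between genes, sums and ratios may depend on it. GENCODE 29 held all 58735 gene identifiers at the same positions. Multiplied by gene length, 100.0% of values lay within 0.01 steps of a whole multiple of 1 step per library, which gave the reads (14317091 to 17084067 per library).

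limma 3.58.1 (R 4.3.3) was fitted to log2(FPKM + 0.1) with a variance trend, and was tested on simulated data. Fold changes on this scale understate the change of low genes. Python 3.11.15 with pandas 2.3.3 and matplotlib 3.10.9 served for the rest. The members, the gene lists and the tests were chosen with earlier results of these data known. Named were the members, genes of the lists on partners, turnover, activators, repressors, similar names and locus transcripts, the nearest protein-coding neighbours, the 2 most similar profiles per member, and *RRM2*. Some genes that this rule and the marker lists cover are not reported here. Marker genes served to check the cell type. Alternatives were other filters, pseudocounts, scalings, thresholds, voom on the recovered reads, a replicate block, and each library left out.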

Additional observations from a re-analysis of the deposited data

How the results depend on the processing

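Each member except *CDKN1C* kept its direction under all 14 alternatives to its fit, with *CDKN1A* between 2.27 and 2.35, *CDKN1B* between -0.79 and -0.70, *CDKN2A* between -0.55 and -0.46 and *CDKN2B* between -0.73 and -0.60 (log2 fold change). *CDKN1C* ranged from -0.181 to 0.112 with each library left out, and turned to 0.11 without *RRM2*-OE-TPC-1 replicate 3. *CDKN2C* passed the adjusted p with library totals (-0.20) and ranged from -0.187 to -0.081 with each library left out, passing without *RRM2*-OE-TPC-1 replicate 1 (-0.19). With library totals the median log2 fold change over all tested genes was -0.045 instead of 0.011, so genes shifted downward in general. The deposited FPKM rest on a depth 1.031 to 1.053 times the recovered reads in the wild strain. In *RRM2*-OE-TPC-1 that depth was 0.997 to 1.010 times the reads. Why *CDKN2C* passed without *RRM2*-OE-TPC-1 replicate 1 was not tested. The number of called genes was 1560, 716 with a pseudocount of 1, 618 when a change above 1 was tested and 9207 at the adjusted p alone, at which 5 members passed instead of 1. Near 0, *FBXL12* (-0.112 to 0.010), *KCNQ1OT1* (-0.083 to 0.026), *FAF1* (-0.050 to 0.003) and *NSUN6* (-0.131 to 0.069) turned in direction in some fits that left out a library, and *KRI1* (-0.022) with library totals.

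Replicate numbers did not pair the libraries (correlations of same-numbered deviations -0.011, -0.006 and -0.055). With the replicate block, 1566 genes and 1 member were called, and 5 members passed the adjusted p, as without the block. The share of all tested genes past the adjusted p with the block is not given here. Read depth limits *CDKN1C* most, with 42 to 65 reads per library.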
